A study of Mus musculus with 12 samples.

Results

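The genes described here rose or fell with interferon gamma (IFNγ) in B16-F10 mouse melanoma cells in which Mbnl1 and Mbnl2 had both been knocked out (DKO cells). Treated DKO libraries were compared with untreated DKO libraries over every gene that reached at least 1 TPM, the unit of the deposited values, in at least 3 of the 12 libraries of the study, which 11663 of 23022 listed genes did. By limma, 91 of these (0.78%) passed an adjusted p-value of 0.05, 79 of them higher (0.677%) and 12 lower (0.103%) with IFNγ. In each of the 91 genes the 3 treated libraries lay wholly above or wholly below the 3 untreated ones, which was so for 1720 of all tested genes (14.7%).

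The study deposited RNA-seq libraries of 4 groups with 3 replicates each: DKO cells and control cells, each untreated or treated with IFNγ. Control cells (NTC) carried a non-targeting guide pair, although their labels read no template control, and the treated groups of both genotypes received 1 ng/mL IFNγ for 24 h according to the text of the study, since the labels give neither dose nor time. All groups came from 1 Cas9-expressing clone of B16-F10, a line of C57BL/6 origin, which had been transduced with a lentivirus carrying a pair of guides and selected with puromycin. The knockout population was not cloned again, so single cells in it can keep an unedited allele, and the RNA values do not measure the proteins. The libraries were poly(A)-selected and unstranded, the TPM do not carry the depth of each library, for which the study gives only an approximate common figure, and it is not stated whether replicates were separate cultures, so that the p-values here measure the spread between samples. The listed genes summed to between 805782 and 827191 TPM in the 6 DKO libraries.

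IFNγ binds a receptor of paired chains that activates the kinases JAK1 and JAK2. The signal reaches gamma-activated sites (GAS) in promoters and induces IRF1 and NLRC5, and with them the genes that process peptides and display them on MHC class I to T cells, together with GTPases and antiviral proteins that act inside the cell. MBNL1 and MBNL2 are RNA-binding proteins best known as regulators of alternative splicing.

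The DKO libraries separated by treatment along the first component of a principal component analysis, which held 33.8% of the variance and placed all 3 treated libraries above 0 and all 3 untreated ones below 0. Treated DKO replicate 2 lay nearest to the untreated libraries on that component, at 2.41 against 8.42 and 13.4 for the other treated replicates, and farthest from all others on component 2 (23.96% of the variance), at 13.0. Without this library the count of called genes was 109 (95 higher, 14 lower). The median SD between replicates over tested genes was 0.0690 (log2) in untreated and 0.0934 in treated DKO libraries. Of the genes called higher, 42 of 79 had their lowest treated value in replicate 2, which was so for 38.2% of all tested genes. In replicate 1 it was 9 of 79 against 25.2% of all tested genes, and in replicate 3 it was 28 of 79 against 36.6%. The fit without treated DKO replicate 2 kept 80 of the calls made with all libraries and lost 8 higher and 3 lower ones. Whether these losses come from the position of replicate 2 on the components was not tested.

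Of the 79 genes that rose, 57 stood on a list of genes grouped by function or cell type and 22 on none. The 57 divide into 52 on lists of the interferon pathway, antigen presentation, antiviral effectors, PARP and TRIM genes or sensors, 2 cell death, 2 melanocyte and 1 leukocyte gene. All lists together hold 178 of the tested genes (1.53%). They were chosen with earlier results of these data known, so the share of raised genes on them is a description and not a test. Fold changes are differences of log2(TPM + 1), which understate the ratio for genes of low level. On this scale, 7 of the genes rose by more than 2, 31 by more than 1 and 57 by more than 0.5, with a median of 0.87 and a range from 0.20 to 2.55, and the median over all tested genes was 0.01. None of the scalings between libraries that were tried moved the latter by more than 0.1. Together the 79 genes made up 4661, 4670 and 4737 TPM in untreated DKO libraries and 7387, 7290 and 7212 TPM in treated ones. As a share of the listed TPM this was 0.567% to 0.573% without and 0.872% to 0.905% with IFNγ, and B2m held 29.3% of the rise and Pmel 14.3%.

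The genes that rose started from all levels of expression. Among 303 tested genes under 1 TPM in untreated DKO libraries, 12 rose, with a median log2 fold change of 1.63. A gene at this level enters the test only if other libraries reach 1 TPM, and these can be the treated ones, so the filter itself favors genes that rise here and the share and median are not comparable with those of the other levels. Of 1934 genes between 1 and 5 TPM, 21 rose, with a median of 0.89. From 20 to 100 TPM, 22 of 4472 genes rose and their median was 0.36. Above 100 TPM, where the median SE was smallest at 0.0487, 5 of 1342 genes rose and 8 fell. Tgtp1, Tgtp2 and Psmb8 were listed at 0 in all 3 untreated DKO libraries and above 0 in all treated ones, and each was called. Whether the deposited table sets low values to 0 is not stated, so that a value listed at 0 here and below is not shown to be an absence of RNA.

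**Figure D1:**
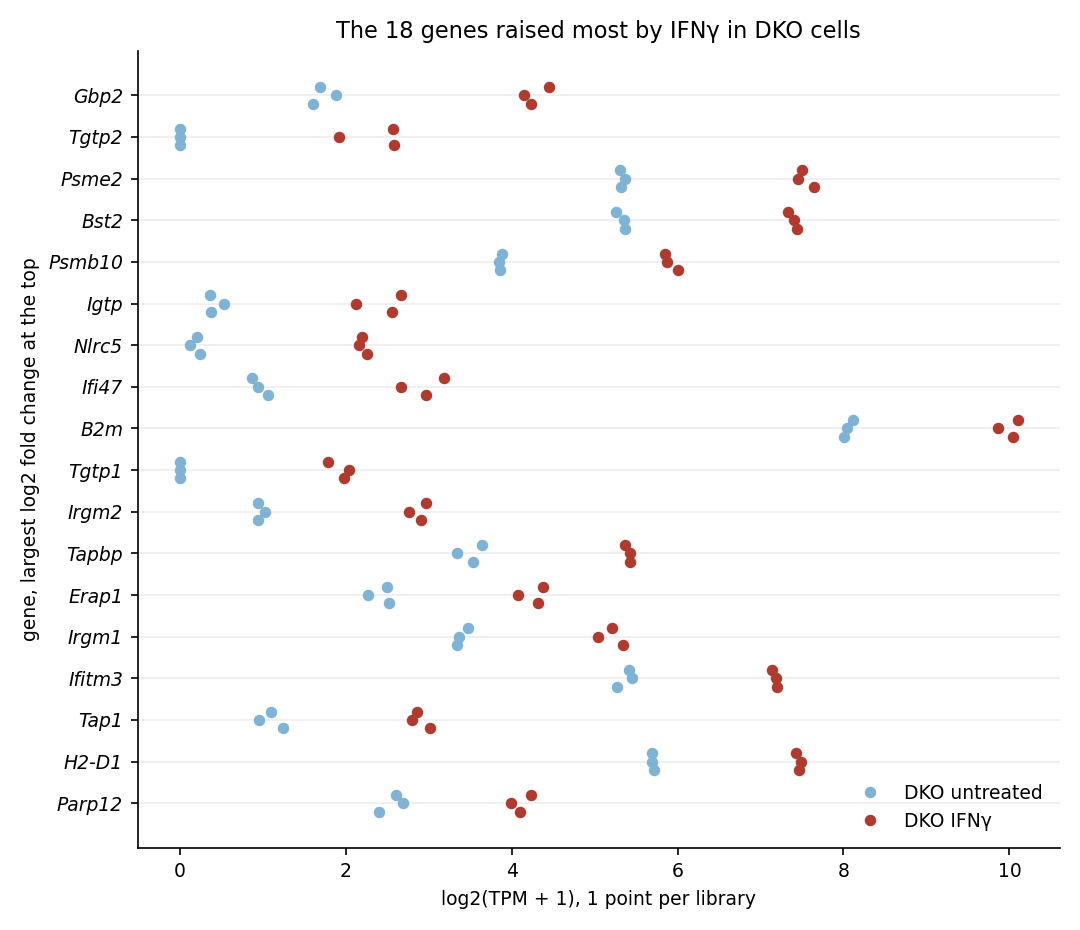
The 18 most raised of the genes called higher with IFNγ in DKO cells, by log2 fold change, with log2(TPM + 1) on the horizontal axis and 1 point for each of the 3 untreated (blue) and 3 treated (red) libraries. The untreated and treated points of each gene lie apart, and the level reached with IFNγ differs widely between genes, from Tgtp1 at the low end to B2m at the high end.

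No receptor chain or Janus kinase passed the test. The list of receptor chains, kinases and STATs had 9 tested genes and a median of 0.02, which ran from −0.01 to 0.08 when any 1 DKO library was left out. Ifngr1, a receptor chain, stood at 16.7, 17.4 and 19.1 TPM without and 18.4, 16.5 and 16.4 TPM with IFNγ (adjusted p = 0.876). Jak1, a kinase bound to the receptor, stood at 51.1, 51.6 and 51.7 TPM without and 50.3, 50.7 and 55.4 TPM with IFNγ (adjusted p = 0.95). In both genes the groups overlapped. Stat3, a transcription factor downstream of cytokine receptors, rose from 24.7, 24.8 and 25.5 to 30.4, 32.8 and 31.6 TPM (log2 fold change 0.32 with SE 0.0456, adjusted p = 0.0017), and it overlaps Stat5a on the opposite strand, whose reads unstranded libraries do not separate.

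The inhibitors that restrain JAK-STAT signaling gave no call. Of 10 listed genes, 8 were tested and limma called 0, with 1 at an unadjusted p-value under 0.05 and a list median of −0.01, or −0.06 to 0.03 when any 1 DKO library was left out. Socs1, an inhibitor of the receptor kinases, lay under the filter at 0.906, 1.09 and 0.859 TPM without and 0.695, 0.887 and 0.831 TPM with IFNγ. Socs3 was at 2.40, 3.07 and 2.14 TPM without and 1.95, 2.47 and 1.27 TPM with IFNγ. The treated and untreated libraries overlapped for both genes.

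Among the interferon regulatory factors, IRF1 and IRF9 rose. The list of 9 had 6 tested members, of which 2 rose, and a median of 0.16. Irf1, an early IFNγ target and activator of many later genes, rose from 13.4, 12.96 and 10.7 to 24.3, 24.8 and 24.3 TPM (log2 fold change 0.93 with SE 0.0712, adjusted p = 2.2e-06). Irf9, the DNA-binding part of an interferon-activated complex, rose from 4.25, 4.89 and 4.55 to 9.93, 9.62 and 9.82 TPM (log2 fold change 0.96 with SE 0.0786, adjusted p = 5.43e-06). In both genes the treated libraries were close to each other and well above the untreated ones. Irf8 lay under the filter, listed at 0 in untreated DKO libraries and at 0.623, 0.589 and 0 TPM in treated ones, with 1 treated library at the untreated level. Irf2, Irf3, Irf5 and Irf7 did not pass the threshold.

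Of the factors that act on MHC promoters, 4 of 5 were tested, 1 rose, and the list median was −0.01, with −0.08 to 0.06 over the fits without 1 DKO library. The gene that rose was Nlrc5, the transactivator of MHC class I genes, which stood at 0.188, 0.0897 and 0.154 TPM untreated and 3.78, 3.47 and 3.57 TPM treated (log2 fold change 2.01 with SE 0.105, adjusted p = 3.84e-08). Nlrc5 was thus close to 0 in all untreated libraries and above 3 TPM in all treated ones. Ciita, its counterpart for MHC class II, was listed at 0 in 5 of the 6 DKO libraries and at 0.246 TPM in treated replicate 2. Rfx5, Rfxank and Rfxap, which form the complex on which both act, did not pass the threshold (lowest adjusted p = 0.5).

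The immunity-related GTPases (IRG), which disrupt the vacuoles of intracellular parasites, rose in all 6 tested members of 7 listed, with a median of 1.96. Igtp, Irgm2, Tgtp1 and Tgtp2 passed the filter only because treated libraries reached 1 TPM. The median is therefore not ranked against those of other lists. Igtp went from 0.305, 0.448 and 0.289 TPM without to 4.90, 3.35 and 5.34 TPM with IFNγ (log2 fold change 2.02 with SE 0.131, adjusted p = 3.68e-07). Irgm1 rose from 9.13, 9.30 and 10.1 to 39.7, 31.98 and 35.9 TPM (log2 fold change 1.80 with SE 0.0929, adjusted p = 3.84e-08). Tgtp1 was listed at 0 without IFNγ and at 2.95, 3.12 and 2.46 TPM with it, and Tgtp2 likewise at 0 and at 5.02, 2.78 and 4.96 TPM. For each of these genes the groups were far apart, with treated replicate 2 lowest for Igtp, Irgm1 and Tgtp2 and not for Tgtp1. Tgtp1 and Tgtp2 are near-identical neighbors, so the division of reads between them is uncertain, and no fold is given against a group listed at 0. Ifi47 rose from 1.09, 0.933 and 0.832 to 6.86, 5.33 and 8.13 TPM (log2 fold change 1.98 with SE 0.137, adjusted p = 7.37e-07), and Irgm2 from 0.924, 1.04 and 0.931 to 6.48, 5.80 and 6.85 TPM (log2 fold change 1.91 with SE 0.0993, adjusted p = 3.84e-08). Irgm2 and Igtp overlap on the same strand.

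The guanylate-binding proteins (GBP), a related GTPase family, rose as well: 4 of 10 listed genes passed the filter and all 4 were called, with a median of 1.35. Gbp2 had the largest log2 fold change of all tested genes, with 2.06, 2.71 and 2.23 TPM untreated and 17.8, 16.7 and 20.9 TPM treated (log2 fold change 2.55 with SE 0.113, adjusted p = 6.03e-09). The ratio of its mean TPM was 7.93, which was not the largest ratio, since that of Nlrc5 was 25.1. Gbp3 rose from 1.56, 1.82 and 1.65 to 6.71, 6.57 and 6.08 TPM (log2 fold change 1.48 with SE 0.0947, adjusted p = 3.43e-07), and Gbp7 and Gbp6 rose by 1.22 and 1.18 on the log2 scale. The treated libraries of Gbp2 and Gbp3 all lay at more than 3 times the highest untreated value. The sequences of this family are alike, so that the share of reads given to each member is uncertain. Since some genes of these families can pass the filter through their treated libraries alone, these counts and medians are a description of the members and not a measure of the families.

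Promoter windows of 250 bases before the start of each gene were read from RefSeq (GRCm38.p6) for 59 of the 79 genes called higher and for 9201 of the 11663 tested genes, and searched on both strands for the core of a GAS (TTC and GAA with any 3 bases between) and of an interferon-stimulated response element (ISRE, GAAA and GAAA with any 2 bases between), which IRF proteins bind. Matches of the motifs may overlap. The ISRE core was found in 16 of the 59 genes (27.1%) and in 266 of the 9201 tested ones (2.89%), and over all RefSeq windows in 978 of 32851 (2.98%). The GAS core was found in 8 of the 59 (13.6%), in 675 of the tested genes (7.34%) and in 2306 of all windows (7.02%). Both stood in 6 of the 59 genes (10.2%), Gbp7, Bst2, Irgm2, Igtp, Tgtp2 and Tgtp1, and in 32 of the tested genes (0.348%). In 41 of the 59 (69.5%) neither was found, against 90.1% of the tested genes. A match is a string of letters and not a measured binding site.

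The windows of 4 IRG genes are printed because they carry the same arrangement, a GAS followed by 2 other bases and an ISRE, in capitals, and because these genes were among the 11 most raised. Each reads 5′ to 3′ toward the gene. They lie at chr11:58199306-58199555, forward strand (Igtp), at chr11:58214727-58214976, forward strand (Irgm2), at chr11:48992247-48992496, reverse strand (Tgtp1) and at chr11:49064213-49064462, reverse strand (Tgtp2).
Igtp: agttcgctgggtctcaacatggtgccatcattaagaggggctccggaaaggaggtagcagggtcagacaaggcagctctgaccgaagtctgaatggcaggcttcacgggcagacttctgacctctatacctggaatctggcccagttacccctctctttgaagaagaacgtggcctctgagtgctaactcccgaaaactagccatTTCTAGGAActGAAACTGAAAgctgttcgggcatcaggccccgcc
Irgm2: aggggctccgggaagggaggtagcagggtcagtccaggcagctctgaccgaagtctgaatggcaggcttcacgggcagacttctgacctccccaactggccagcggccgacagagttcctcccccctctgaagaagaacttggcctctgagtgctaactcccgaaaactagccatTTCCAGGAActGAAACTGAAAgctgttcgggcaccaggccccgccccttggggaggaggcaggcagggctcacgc
Tgtp1: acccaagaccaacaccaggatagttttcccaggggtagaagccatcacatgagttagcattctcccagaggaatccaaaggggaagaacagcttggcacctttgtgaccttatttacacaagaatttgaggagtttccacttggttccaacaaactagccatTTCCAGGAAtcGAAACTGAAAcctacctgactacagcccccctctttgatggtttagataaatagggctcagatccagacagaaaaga
Tgtp2: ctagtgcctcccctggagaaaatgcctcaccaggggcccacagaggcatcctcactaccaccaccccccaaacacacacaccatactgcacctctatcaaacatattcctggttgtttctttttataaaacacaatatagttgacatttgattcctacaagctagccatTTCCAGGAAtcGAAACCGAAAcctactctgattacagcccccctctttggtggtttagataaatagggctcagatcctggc

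A second set shows windows of genes with other arrangements. Bst2 (chr8:71537473-71537722, reverse strand) has a GAS that overlaps the first of a pair of overlapping ISRE matches. Gbp2 (chr3:142620413-142620662, forward strand) and B2m (chr2:122147437-122147686, forward strand) have an ISRE match alone, that of Gbp2 on the opposite strand, and Irf1 (chr11:53769764-53770013, forward strand) has a GAS alone. Capitals mark the matches.
Bst2: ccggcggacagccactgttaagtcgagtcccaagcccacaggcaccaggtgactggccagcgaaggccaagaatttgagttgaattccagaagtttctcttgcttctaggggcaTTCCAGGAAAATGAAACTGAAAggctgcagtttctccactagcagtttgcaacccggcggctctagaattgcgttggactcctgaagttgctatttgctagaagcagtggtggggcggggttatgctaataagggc
Gbp2: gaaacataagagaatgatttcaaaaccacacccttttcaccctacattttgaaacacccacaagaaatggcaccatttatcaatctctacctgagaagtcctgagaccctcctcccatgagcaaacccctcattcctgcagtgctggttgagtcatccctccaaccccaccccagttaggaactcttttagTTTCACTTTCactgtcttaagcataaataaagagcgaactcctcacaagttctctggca
B2m: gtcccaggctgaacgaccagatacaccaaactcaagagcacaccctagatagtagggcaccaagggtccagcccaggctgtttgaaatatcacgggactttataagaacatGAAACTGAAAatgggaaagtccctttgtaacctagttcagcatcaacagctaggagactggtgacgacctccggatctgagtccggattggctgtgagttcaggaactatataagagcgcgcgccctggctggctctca
Irf1: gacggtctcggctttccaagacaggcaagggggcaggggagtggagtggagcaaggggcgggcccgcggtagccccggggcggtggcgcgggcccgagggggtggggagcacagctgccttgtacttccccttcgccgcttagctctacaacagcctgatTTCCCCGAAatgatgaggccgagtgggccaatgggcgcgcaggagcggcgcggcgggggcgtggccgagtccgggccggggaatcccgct

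The chains of MHC class I, which present peptides to CD8 T cells, rose for the classical and part of the non-classical genes. Of 16 listed genes, 8 were tested and 5 rose, with a median of 0.89. B2m, the light chain shared by all class I molecules, stood at 256, 263 and 276 TPM without IFNγ and 1057, 933 and 1097 TPM with it (log2 fold change 1.95 with SE 0.058, adjusted p = 8.32e-11), the highest treated level among the interferon pathway genes that rose. H2-D1, a classical heavy chain, rose from 51.6, 50.7 and 50.5 to 175, 179 and 171 TPM (log2 fold change 1.76 with SE 0.037, adjusted p = 3.37e-12). H2-K1, the other classical chain of this mouse strain, rose from 34.6, 33.04 and 31.04 to 75.6, 80.5 and 70.8 TPM (log2 fold change 1.18 with SE 0.0627, adjusted p = 4.83e-08). All treated libraries exceeded all untreated ones by a wide margin in these genes, with ratios of mean TPM of 3.88 for B2m, 3.43 for H2-D1 and 2.30 for H2-K1. H2-T22 rose by 1.07 and H2-Q4 by 0.71. H2-T23, which presents signal peptides to inhibitory receptors of natural killer cells, stood at 9.08, 9.74 and 9.91 TPM without and 10.9, 10.2 and 10.1 TPM with IFNγ and did not pass the threshold (log2 fold change 0.11 with SE 0.1, adjusted p = 0.783), and neither did H2-Q6 or H2-Q7. Heavy chain genes share long stretches of sequence, so reads may be assigned to a neighbor. As bulk values, these cannot tell a change in all cells from a change in part of them.

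Some genes that supply peptides to class I also rose, in transport, trimming and loading. The list of 8 genes was tested in full, 4 rose, and its median was 0.69. Tap1, a subunit of the peptide transporter, stood at 1.37, 0.942 and 1.15 TPM without and 7.11, 5.96 and 6.26 TPM with IFNγ (log2 fold change 1.79 with SE 0.102, adjusted p = 8.4e-08). Its partner Tap2 rose from 0.978, 1.35 and 0.787 to 2.81, 2.48 and 2.55 TPM (log2 fold change 0.83 with SE 0.119, adjusted p = 0.00186). The subunits thus differed in level in treated cells, where every library had more than 2 times as much Tap1 as Tap2 in TPM. Tapbp, the tapasin that bridges transporter and heavy chain, rose from 10.6, 9.15 and 11.6 to 42.1, 42.1 and 40.2 TPM (log2 fold change 1.90 with SE 0.0787, adjusted p = 3.68e-09). Erap1, a trimming peptidase of the endoplasmic reticulum, rose from 4.77, 3.82 and 4.65 to 18.98, 15.9 and 19.9 TPM (log2 fold change 1.83 with SE 0.105, adjusted p = 9.32e-08) and overlaps Cast on the opposite strand. The general chaperones of the compartment did not pass the threshold, with log2 fold changes of 0.16 for Calr, 0.15 for Pdia3 and 0.12 for Canx. All 8 genes of the list had an unadjusted limma p-value under 0.05. Tapbpl, a tapasin relative, missed it at 0.55 (adjusted p = 0.0595) and passed it only without treated NTC replicate 2 (adjusted p = 0.0354) among the fits that each left out 1 library.

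The inducible subunits of the proteasome all rose, and none of 5 constitutive proteasome genes passed the test. All 5 genes of the immunoproteasome and its PA28 activator were called, with a median of 1.46, or 1.75 without Psmb8. Psme2, a PA28 subunit, stood at 38.8, 40.3 and 38.5 TPM without and 199, 174 and 179.6 TPM with IFNγ (log2 fold change 2.20 with SE 0.063, adjusted p = 6.57e-11). Psme1, its partner, rose from 60.8, 57.7 and 63.4 to 162, 155 and 157 TPM (log2 fold change 1.37 with SE 0.048, adjusted p = 4.79e-10), and in every treated library Psme2 was the higher of the pair. Psmb10, a catalytic subunit, rose from 13.5, 13.5 and 13.8 to 63.5, 57.8 and 56.7 TPM (log2 fold change 2.05 with SE 0.0701, adjusted p = 4.27e-10). Psmb9, another, rose from 1.04, 1.17 and 0.931 to 5.34, 4.56 and 4.04 TPM (log2 fold change 1.46 with SE 0.111, adjusted p = 2.2e-06) and overlaps Tap1 on the opposite strand. Psmb8, the third, was listed at 0 in each untreated library and reached 0.488, 0.589 and 0.975 TPM with IFNγ (adjusted p = 0.0181). The treated level of Psmb8 was thus low and uneven, and its call was lost without untreated DKO replicate 1, 2 or 3 or treated DKO replicate 3 (adjusted p = 0.0684, 0.074, 0.0684 and 0.0837 in that order). Of the 5 constitutive genes, Psmb5, Psmb6, Psmb7, Psme3 and Psme4, limma called 0, with 1 at an unadjusted p-value under 0.05 and a median of 0.02 that ran from 0.01 to 0.06 without 1 DKO library. Psmb5, which Psmb8 replaces in the immunoproteasome, stood at 208, 194 and 201 TPM without and 200.5, 219 and 186 TPM with IFNγ.

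Antiviral effectors formed the longest list, and close to 1 in 2 of its tested members rose: 13 of 27 tested genes (34 listed), with a median of 0.49. Bst2, or tetherin, which holds budding virus at the cell surface, stood at 40.2, 39.8 and 37.1 TPM without and 172, 169 and 160.4 TPM with IFNγ (log2 fold change 2.07 with SE 0.0532, adjusted p = 2.45e-11). Ifitm3, which blocks viral entry from endosomes, rose from 37.7, 42.9 and 41.5 to 146, 145 and 139 TPM (log2 fold change 1.79 with SE 0.11, adjusted p = 2.04e-07). These were the most abundant of the effectors that rose along with Lgals3bp, at 61.9, 59.9 and 60.2 TPM untreated and 151, 151 and 145 TPM treated. Isg15, a ubiquitin-like modifier, rose from 6.07, 7.37 and 5.35 to 11.7, 13.3 and 11.6 TPM (log2 fold change 0.87 with SE 0.132, adjusted p = 0.00306). Ube2l6, the enzyme that conjugates it, rose from 6.07, 8.17 and 6.87 to 19.7, 18.6 and 21.1 TPM (log2 fold change 1.38 with SE 0.0992, adjusted p = 1.17e-06), while Uba7, which activates it, did not pass the threshold (log2 fold change 0.34, adjusted p = 0.162). The steps of ISG15 conjugation were thus called in part.

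Rsad2, or viperin, rose from 6.98, 7.57 and 6.68 to 16.1, 14.4 and 16.4 TPM (log2 fold change 1.04 with SE 0.0899, adjusted p = 9.67e-06). Ifit1 and Ifit3, which sense foreign RNA ends, rose by 0.79 and 0.98, and their relative Ifit2 stood at 25.7, 24.7 and 25.6 TPM untreated and 27.1, 24.4 and 27.5 TPM treated, with overlapping groups. The levels of these relatives were unequal before treatment, with Ifit2 near 25 TPM and the others under 5 TPM. Rtp4, Ifi27l1, Ifi35, Xaf1 and Rnf213 were the other effectors that rose, by 1.15, 0.97, 0.80, 0.62 and 0.60. The oligoadenylate synthetases and Mx proteins gave no call. Oas1a stood at 0.404, 0.439 and 0.732 TPM without and 1.29, 0.668 and 0.858 TPM with IFNγ. Mx1 stood at 2.34, 2.35 and 2.78 TPM without and 3.45, 2.42 and 3.33 TPM with IFNγ. Eif2ak2, the kinase PKR, missed the threshold as well (log2 fold change 0.26, adjusted p = 0.321). Samd9l passed it only without treated DKO replicate 2 (adjusted p = 0.0367) among the fits that each left out 1 library.

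Some genes of ADP-ribosylation rose, and most of the TRIM ubiquitin ligases and nuclear body genes did not pass the test. This list had 13 tested members of 15, of which 6 rose, and a median of 0.73. Parp12 stood at 4.27, 5.49 and 5.07 TPM without and 16.2, 14.95 and 17.8 TPM with IFNγ (log2 fold change 1.54 with SE 0.0872, adjusted p = 8.4e-08). Parp14 rose from 0.808, 0.735 and 0.922 to 2.38, 2.60 and 2.74 TPM (log2 fold change 0.97 with SE 0.103, adjusted p = 9.29e-05), and Parp10 from 5.25, 4.57 and 4.24 to 10.99, 8.91 and 8.26 TPM (log2 fold change 0.86 with SE 0.0992, adjusted p = 0.000237). The ratios of mean TPM of these 3 genes were 3.30, 3.13 and 2.00. Parp9 and Dtx3l, whose products form a complex and whose genes overlap on opposite strands, rose by 0.97 and 0.73. Trim25, a ligase of the RIG-I pathway, rose by 0.51 (adjusted p = 0.0095), and its call was lost without untreated DKO replicate 2 or treated DKO replicate 3 (adjusted p = 0.0692 and 0.0565 in that order). Trim21, an antibody receptor in the cytosol, had a similar value of 0.51 (adjusted p = 0.0644) and passed only without untreated DKO replicate 3 (adjusted p = 0.015). Sp100 was listed at 0 in 2 of 3 untreated DKO libraries and at 1.72, 1.71 and 1.70 TPM in treated ones, and Pml at 19.6, 19.7 and 20.1 TPM without and 19.1, 21.1 and 18.6 TPM with IFNγ, with no call for either.

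Some sensors of nucleic acids rose, and the genes of cGAS and STING did not pass the test. Of 13 listed sensors and their partners, 10 were tested and 4 rose, with a median of 0.34. Ddx58, which encodes the RNA sensor RIG-I, stood at 3.20, 3.56 and 3.44 TPM without and 7.30, 6.84 and 7.34 TPM with IFNγ (log2 fold change 0.89 with SE 0.0886, adjusted p = 4.79e-05). Ifih1, which encodes the RNA sensor MDA5, rose from 2.41, 3.09 and 2.41 to 5.15, 5.77 and 6.26 TPM (log2 fold change 0.89 with SE 0.109, adjusted p = 0.000452). Zbp1, a sensor of left-handed nucleic acids that can trigger necroptosis, was listed at 0 in 2 untreated libraries and 0.511 TPM in the other, and at 2.27, 1.70 and 1.81 TPM in treated ones (log2 fold change 1.35 with SE 0.189, adjusted p = 0.00169). Each treated library exceeded each untreated one in these 3 genes. Nmi, an interferon-induced adaptor protein, rose by 0.76. Mb21d1 and Tmem173, which encode the DNA sensor cGAS and its adaptor STING, stood at 3.74, 3.91 and 3.75 and 31.6, 27.98 and 29.4 TPM untreated and at 4.05, 3.34 and 3.83 and 32.4, 32.4 and 31.8 TPM treated, and neither passed the threshold.

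Several lists that belong to the wider interferon response gave no call in DKO cells. For MHC class II, 2 of 10 listed genes were tested, H2-DMb1 and H2-DMb2, with 0 called by limma and 0 at an unadjusted p-value under 0.05. H2-Aa, H2-Ab1, H2-Eb1 and H2-Ob were listed at 0 in all 6 DKO libraries, and the invariant chain Cd74 at 0.494, 0.708 and 0.479 TPM untreated and 1.00, 0.545 and 0.632 TPM treated. The list summed to between 2.88 and 4.68 TPM over the DKO libraries, with H2-DMb2 most abundant. Of 16 chemokine and checkpoint genes, 8 were tested and limma called 0, with 3 at an unadjusted p-value under 0.05 and a median of 0.24. Cd274, which encodes the checkpoint ligand PD-L1, stood at 2.16, 2.40 and 2.19 TPM without and 3.62, 3.04 and 2.67 TPM with IFNγ (log2 fold change 0.33 with SE 0.112, adjusted p = 0.329). Its treated libraries all lay above its untreated ones without passing the threshold. Cxcl10, a chemokine that draws T cells, stood at 11.8, 15.3 and 11.1 TPM untreated and 19.4, 12.1 and 13.9 TPM treated, with overlapping groups, and Cxcl9 was listed at 0 in all DKO libraries.

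Cell death genes were called in 2 of 13 tested cases (17 listed), with a median of 0.06. Mlkl, the executioner of necroptosis, stood at 38.2, 40.9 and 43.3 TPM without and 55.8, 51.4 and 56.98 TPM with IFNγ (log2 fold change 0.42 with SE 0.0645, adjusted p = 0.00389). Gsdmd, whose cleaved product forms pores in pyroptosis, rose from 1.04, 0.807 and 0.624 to 1.69, 2.12 and 1.53 TPM (log2 fold change 0.61 with SE 0.123, adjusted p = 0.0345). Both are executioners of lytic forms of death, and the groups did not overlap in either. The call of Gsdmd was lost without untreated DKO replicate 2 or 3, treated DKO replicate 1 or 2, untreated NTC replicate 3 or treated NTC replicate 1, 2 or 3 (adjusted p = 0.134, 0.168, 0.103, 0.109, 0.0636, 0.0546, 0.0519 and 0.0533 in that order). The upstream kinase Ripk3 was listed at 0 in 4 of 6 DKO libraries, Fas in all 6, and Casp8 stood at 69.9, 77.9 and 81.4 TPM without and 76.5, 72.5 and 84.1 TPM with IFNγ.

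Cell cycle and p53 target genes gave no call. All 12 proliferation genes were tested and limma called 0, with 1 at an unadjusted p-value under 0.05 and a median of 0.02 (0.01 to 0.05 without 1 DKO library). Mki67, a marker of cycling cells, stood at 85.6, 87.8 and 90.8 TPM without and 93.4, 91.7 and 102 TPM with IFNγ (log2 fold change 0.12 with SE 0.0485, adjusted p = 0.451). Of 10 p53 targets, 8 were tested and 0 called, with 1 at an unadjusted p-value under 0.05 and a median of −0.08. Cdkn1a, the cell cycle inhibitor p21, stood at 260.3, 218 and 211 TPM without and 211, 234 and 189 TPM with IFNγ, with overlapping groups.

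The melanocyte program was expressed throughout, and 2 of its 14 genes rose with IFNγ, with a list median of 0.13. Tyrp1, a melanin-forming enzyme, reached 3835, 3947 and 4034 TPM in untreated DKO libraries, and the least abundant of the top 5 genes of the list, Mlana, 1445, 1464 and 1500.2 TPM. Trpm1, a cation channel gene controlled by the melanocyte factor MITF, rose from 34.2, 35.6 and 31.7 to 44.5, 44.9 and 43.2 TPM (log2 fold change 0.38 with SE 0.0505, adjusted p = 0.00106). Pmel, which forms the fibrils of the pigment organelle and is the source of the melanoma antigen gp100, stood at 2444, 2434 and 2469 TPM untreated and 2821, 2965 and 2681 TPM treated (log2 fold change 0.20 with SE 0.0417, adjusted p = 0.038). The rise of Pmel was the smallest among the genes called higher, and its treated libraries were spread more widely than the untreated ones. Its call was lost without untreated DKO replicate 1, 2 or 3, treated DKO replicate 1 or 2, untreated NTC replicate 2 or 3 or treated NTC replicate 1 (adjusted p = 0.137, 0.179, 0.134, 0.15, 0.0895, 0.0625, 0.062 and 0.0583 in that order). This call was also lost with no filter, with the replicate block and with no trend of the prior variance. The same held with only the 6 DKO libraries, with a common total for all libraries and with median-ratio scaling. Pmel overlaps Cdk2 on the opposite strand. Tyrp1 missed the threshold at 0.19 (adjusted p = 0.0824) and passed it without treated DKO replicate 2 or untreated NTC replicate 1 (adjusted p = 0.0365 and 0.048 in that order), while Mitf stood at 178, 177 and 176 TPM untreated and 192, 201 and 199 TPM treated and was not called (adjusted p = 0.254).

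**Figure D2:**
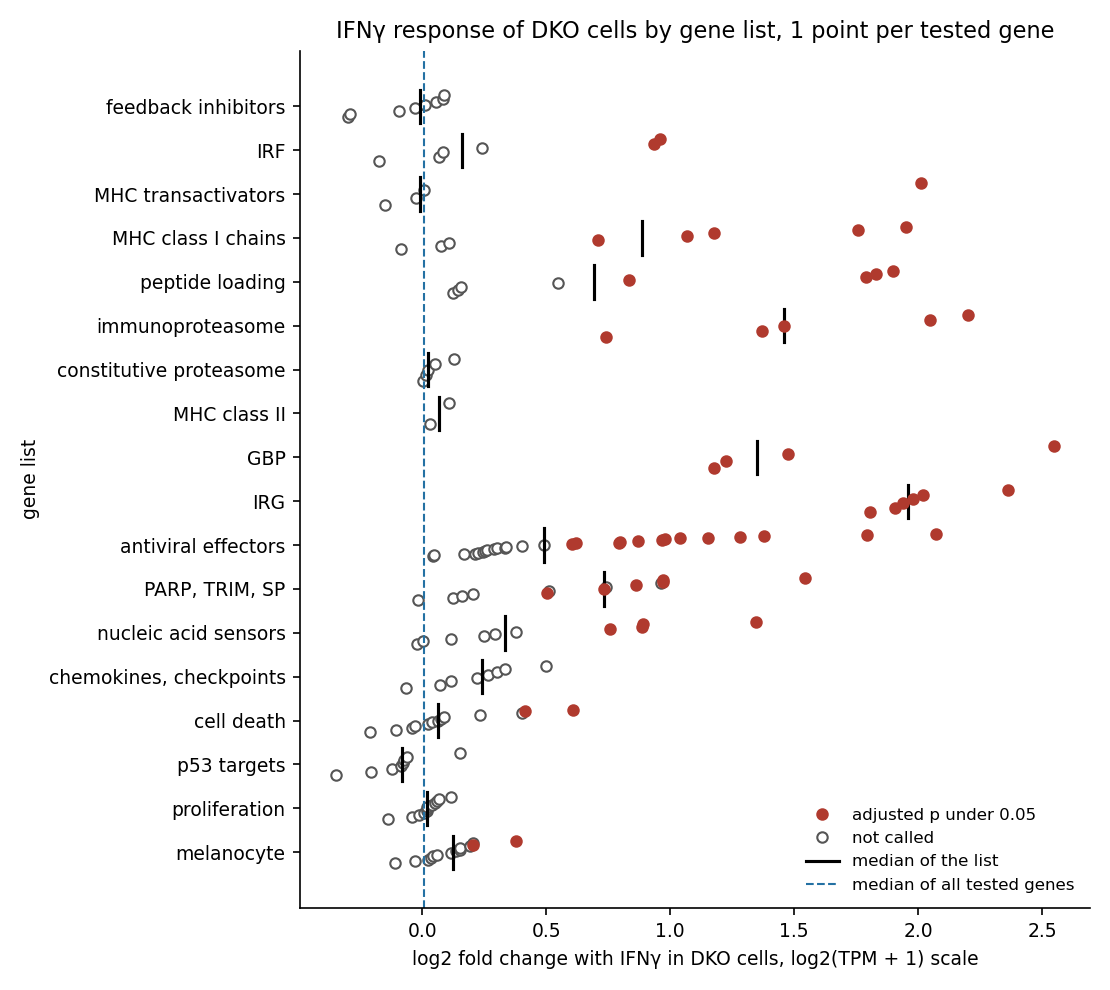
Log2 fold change with IFNγ in DKO cells for each tested gene of 18 lists, on the log2(TPM + 1) scale, with red points for genes with an adjusted p-value under 0.05, open points for the others, a black bar at the median of each list and a dashed line at the median of all tested genes, 0.01. The medians of the IRG, immunoproteasome and GBP lists, 1.96, 1.46 and 1.35, lie farthest to the right, and those of the feedback and proliferation lists lie beside the dashed line. The IRG, immunoproteasome and GBP lists each hold genes that passed the filter only through treated libraries, so their place is not a ranking.

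A further 22 genes rose that stood on none of the lists, and except for those called in DKO alone and those of the highest treated level they are named after their values were seen. Their changes were smaller, and they include secreted, lysosomal and surface proteins. Tmem140, a membrane protein, rose from 2.20, 2.74 and 3.18 to 5.98, 5.23 and 5.82 TPM (log2 fold change 0.86 with SE 0.137, adjusted p = 0.00519). Il17rc, a chain of the IL-17 receptor, rose from 18.6, 15.2 and 18.2 to 25.7, 27.5 and 27.9 TPM (log2 fold change 0.62 with SE 0.0882, adjusted p = 0.00191). The cathepsin genes Ctso and Ctsb, which encode lysosomal proteases, rose by 0.53 (adjusted p = 0.00405) and 0.23 (adjusted p = 0.00326). C2, a complement protease of the MHC region, rose from 51.4, 48.9 and 52.6 to 67.2, 64.3 and 65.6 TPM (log2 fold change 0.36 with SE 0.0473, adjusted p = 0.00088). In these 5 genes every treated DKO library lay above every untreated one. Itm2b, a membrane protein, rose from 134, 134 and 129 to 175, 167 and 173 TPM (log2 fold change 0.37 with SE 0.0374, adjusted p = 5.11e-05), Cadm1, an adhesion molecule, by 0.30 (adjusted p = 0.00116), and G6pdx, the entry enzyme of the pentose phosphate pathway, by 0.28 (adjusted p = 0.00392).

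For another 9 of these genes the call was lost without at least 1 library. With all libraries kept and no filter, the calls of C1ra, Dync1h1, 2310003F16Rik, Pcolce and Fkbp11 were lost as well. Mov10, an RNA helicase with antiviral activity, rose from 13.8, 13.6 and 14.2 to 20.4, 19.4 and 18.1 TPM (log2 fold change 0.45 with SE 0.0806, adjusted p = 0.0151), and its call was lost without untreated DKO replicate 1 or 2 or treated DKO replicate 1 (adjusted p = 0.0674, 0.0836 and 0.0993 in that order). C1ra, a complement protease, rose by 0.63 (adjusted p = 0.0336), and this was lost without untreated DKO replicate 2 or 3, treated DKO replicate 1, 2 or 3, untreated NTC replicate 3 or treated NTC replicate 2 (adjusted p = 0.154, 0.164, 0.0842, 0.0715, 0.153, 0.0508 and 0.0506 in that order). Met, the receptor of hepatocyte growth factor, stood at 204, 216 and 218 TPM untreated and 248, 247 and 272 TPM treated (log2 fold change 0.27 with SE 0.0451, adjusted p = 0.00807), a call lost without untreated DKO replicate 1 (adjusted p = 0.0583). Complement genes were thus called on both chromosomes 6 and 17, and Met was among the 5 genes of highest treated level that rose. Grik2, a glutamate receptor subunit, rose by 0.42 (adjusted p = 0.0215), which was lost without untreated DKO replicate 1 or 2 or treated DKO replicate 2 or 3 (adjusted p = 0.119, 0.132, 0.0763 and 0.0704 in that order). Dync1h1, the heavy chain of dynein, rose by 0.28 (adjusted p = 0.0345), which was lost without untreated DKO replicate 2 or 3, treated DKO replicate 1 or 2, untreated NTC replicate 3 or treated NTC replicate 3 (adjusted p = 0.192, 0.156, 0.128, 0.1, 0.0636 and 0.0557 in that order). Rcn1, a calcium-binding protein of the endoplasmic reticulum, rose by 0.24 (adjusted p = 0.0213), which was lost without untreated DKO replicate 1 or 2 or treated DKO replicate 1 (adjusted p = 0.121, 0.0974 and 0.119 in that order). The remaining 3, with 2310003F16Rik (named Hypk in the annotation used for positions) among them, were spread over chromosomes 2, 5 and 15. The call of 2310003F16Rik (0.36, adjusted p = 0.0214) was lost without untreated DKO replicate 1 or 2 or treated DKO replicate 1 (adjusted p = 0.0804, 0.126 and 0.126 in that order). That of Pcolce (0.35, adjusted p = 0.0392) was lost without untreated DKO replicate 1, 2 or 3, treated DKO replicate 1 or 2, untreated NTC replicate 3 or treated NTC replicate 1 or 3 (adjusted p = 0.12, 0.179, 0.135, 0.174, 0.109, 0.0636, 0.0521 and 0.0591 in that order). That of Fkbp11 (0.34, adjusted p = 0.0345) was lost without untreated DKO replicate 1 or 3, treated DKO replicate 1 or 3, untreated NTC replicate 1 or 3 or treated NTC replicate 1 (adjusted p = 0.171, 0.168, 0.128, 0.153, 0.0519, 0.0508 and 0.0521 in that order).

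Markers of other cell types were low in DKO libraries, and 5 of them were tested. Of 12 leukocyte markers, 7 were listed at 0 in all 6 DKO libraries, among them Ptprc, Cd3e, Cd8a, Ms4a1 and Itgam, which define leukocytes, T cells, B cells and myeloid cells. Summed over the list, DKO libraries held 3.69, 4.36 and 3.53 TPM without IFNγ and 7.50, 6.55 and 6.00 TPM with it. The most abundant and only tested gene of the list was Cd68, an endosomal glycoprotein used as a macrophage marker. Cd68 stood at 2.40, 3.11 and 2.53 TPM untreated and 6.49, 5.39 and 4.84 TPM treated (log2 fold change 0.83 with SE 0.135, adjusted p = 0.00551), so that the rise of the sum followed Cd68, while Lyz2 and Csf1r stayed under 1 TPM in all DKO libraries. Fibroblast markers summed to 7.56, 6.76 and 8.08 TPM untreated and 6.74, 7.60 and 6.87 TPM treated, with Pdgfrb most abundant and Dcn and Lum at 0, and limma called 0 of 3 tested genes of 7, with 0 at an unadjusted p-value under 0.05. Endothelial markers summed to 2.20, 3.01 and 2.47 TPM untreated and 2.39, 2.77 and 2.29 TPM treated, with Tek, Cdh5 and Kdr at 0. Vwf, the most abundant and the only tested one of 5, was not called (unadjusted p above 0.05). None of 6 keratinocyte and epithelial markers was tested, and all but Cdh1 were listed at 0 in DKO libraries, with sums from 0.434 to 0.861 TPM. The part of such cells in the result was not tested.

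The knocked-out genes themselves did not respond to IFNγ beyond the threshold: of Mbnl1, Mbnl2 and their relative Mbnl3, limma called 0, with 0 at an unadjusted p-value under 0.05. Mbnl1 RNA stood in DKO cells at 41.3, 41.1 and 44.04 TPM without IFNγ and 44.9, 42.7 and 47.5 TPM with it. Mbnl2 RNA stood at 87.2, 90.2 and 90.00 TPM without and 88.9, 83.9 and 98.04 TPM with IFNγ. Transcripts of edited alleles count in these values like any other.

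Far fewer genes fell than rose, and 8 of the 12 stood above 100 TPM in untreated DKO cells. Summed over the 12 genes, untreated DKO libraries held 12820.0, 12948 and 12790.4 TPM and treated ones 10845, 10546 and 10974 TPM. None of the 12 was on a list, and 3 fell by more than 0.5 on the log2 scale. Slc38a6, which encodes a transporter of the amino acid carrier family, stood at 3959, 4128 and 4037 TPM without and 3248, 3129.7 and 3435 TPM with IFNγ (log2 fold change −0.31 with SE 0.0437, adjusted p = 0.00189). Prnp, which encodes the prion protein, went from 1533, 1569 and 1537 to 1252, 1200.0 and 1280.0 TPM (log2 fold change −0.31 with SE 0.0418, adjusted p = 0.001). Ccrn4l, or nocturnin, went from 1784, 1835 and 1804 to 1456, 1396 and 1575 TPM (log2 fold change −0.29 with SE 0.0434, adjusted p = 0.00248). These 3 abundant transcripts were lower in each treated library than in any untreated one, and with Mrap they were the only ones of the 12 called in each fit that left out 1 library. Mrap, an accessory protein of the melanocortin receptors, was listed at 0.853, 0.906 and 0.832 TPM untreated and at 0 in all treated DKO libraries (adjusted p = 0.00259), and no fold is given for it. Its call would mean less if low values had been set to 0 in the deposited table, which was not tested. Tmem54, the only other tested gene above 0 in all untreated and at 0 in all treated DKO libraries, was not called.

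The other 8 calls among the lowered genes were each lost without at least 1 library. The count of 12 was 5 without untreated DKO replicate 1, 4 without replicate 2, 5 without replicate 3, 7 without treated DKO replicate 1, 6 without treated DKO replicate 3, 6 without untreated NTC replicate 3, and between 8 and 14 without each of the other 6 libraries. Lsm7, a subunit of the ring that binds U6 RNA, went from 28.4, 36.4 and 21.98 to 15.4, 17.3 and 16.1 TPM (log2 fold change −0.77 with SE 0.143, adjusted p = 0.0191). This was lost without untreated DKO replicate 1 or 2 or treated DKO replicate 1 or 3 (adjusted p = 0.0775, 0.066, 0.104 and 0.0739 in that order). Crip1, a small LIM domain protein, went from 7.52, 8.56 and 8.05 to 5.34, 5.25 and 3.80 TPM (log2 fold change −0.65 with SE 0.125, adjusted p = 0.025), and this was lost without untreated DKO replicate 1, 2 or 3 or treated DKO replicate 3 (adjusted p = 0.0583, 0.136, 0.102 and 0.0954 in that order). The untreated values of Lsm7 were far apart, with replicate 2 highest and replicate 3 lowest. Spata24 went from 9.11, 9.83 and 9.72 to 5.57, 7.21 and 7.26 TPM (log2 fold change −0.47 with SE 0.0977, adjusted p = 0.0444), and this was lost without untreated DKO replicate 1, 2 or 3, treated DKO replicate 1 or 3, untreated NTC replicate 1 or 3 or treated NTC replicate 1 or 2 (adjusted p = 0.0997, 0.192, 0.168, 0.177, 0.0503, 0.065, 0.0667, 0.0506 and 0.0693 in that order).

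The remaining lowered genes, at more than 200 TPM each in untreated DKO libraries, fell by between 0.16 and 0.26 on the log2 scale. Inadl (Patj in the annotation used for positions), a scaffold protein of cell junctions, went from 209, 204 and 217 to 179, 169.8 and 178 TPM (adjusted p = 0.0429), which was lost without untreated DKO replicate 1, 2 or 3, treated DKO replicate 1, 2 or 3, untreated NTC replicate 3 or treated NTC replicate 1 (adjusted p = 0.133, 0.0935, 0.219, 0.122, 0.109, 0.0872, 0.0731 and 0.0583 in that order). H1f0, a linker histone, went from 537, 494 and 498 to 435, 459 and 423 TPM (adjusted p = 0.0345), which was lost without untreated DKO replicate 1, 2 or 3, treated DKO replicate 1 or 3, untreated NTC replicate 3 or treated NTC replicate 1 (adjusted p = 0.171, 0.066, 0.0816, 0.153, 0.135, 0.0659 and 0.0546 in that order). Rps19, of the small ribosomal subunit, went from 2079, 2145 and 2075 to 1899, 1855 and 1809 TPM (adjusted p = 0.0347), which was lost without untreated DKO replicate 1, 2 or 3, treated DKO replicate 1, 2 or 3, untreated NTC replicate 3 or treated NTC replicate 1 or 3 (adjusted p = 0.105, 0.21, 0.113, 0.0732, 0.0589, 0.118, 0.0667, 0.0543 and 0.0544 in that order). Gm10275, a predicted gene, fell by 0.17 (adjusted p = 0.0429), lost without untreated DKO replicate 1, 2 or 3, treated DKO replicate 1, 2 or 3, untreated NTC replicate 1, 2 or 3 or treated NTC replicate 1 or 2 (adjusted p = 0.215, 0.066, 0.157, 0.0905, 0.0663, 0.142, 0.0547, 0.0683, 0.0738, 0.0583 and 0.07 in that order). Anapc5, a subunit of the anaphase-promoting complex, fell by 0.16 (adjusted p = 0.0311), lost without untreated DKO replicate 1, 2 or 3, treated DKO replicate 1 or 3, untreated NTC replicate 2 or 3 or treated NTC replicate 1 (adjusted p = 0.11, 0.132, 0.157, 0.103, 0.0831, 0.0525, 0.0658 and 0.0506 in that order).

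**Figure D3:**
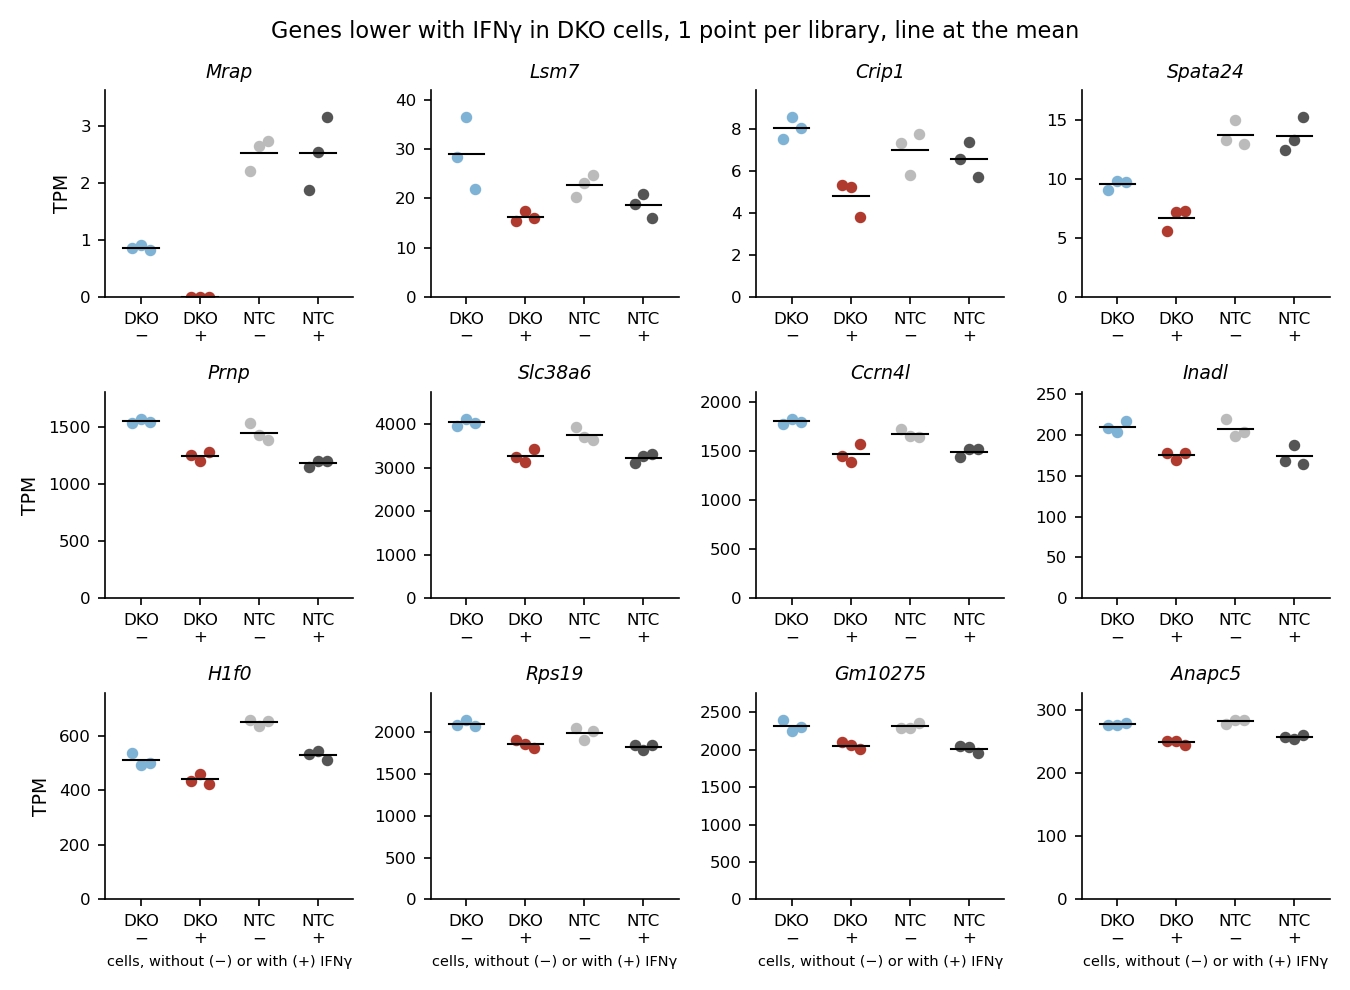
TPM of the 12 genes lower with IFNγ in DKO cells, 1 panel per gene with its own axis from 0, 1 point per library in DKO and NTC cells without and with IFNγ, and a line at each group mean. In the DKO columns every treated point lies under every untreated one, and Mrap is at 0 in the treated DKO libraries alone.

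Set beside control cells, fewer genes were called in DKO cells, and the shared calls had the same direction. In NTC cells 1411 of the tested genes (12.1%) were called, 853 of them higher (7.31%), a count that single libraries moved to as low as 319, which was its value without treated NTC replicate 3 (335 if treated replicate 2 was left out, 348 for untreated replicate 3 and 394 for untreated replicate 2). The DKO and NTC comparisons share no libraries, although the spread is estimated over all 12, so that a library of 1 genotype can move calls in the other. The 77 genes called in both make up 84.6% of the DKO calls and 5.46% of the NTC calls, 69 of them higher and 8 lower in both. Of the 1334 genes called in NTC alone, 1125 (84.3%) had a fold change of the same sign in DKO cells, with a median size of 0.26 in NTC and a median of 0.07 along that direction in DKO cells, and 2 of the 1334 had a called difference between the genotypes. Counts of calls therefore do not measure how far the responses differ.

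Where the control response was strong, the DKO call was mostly present. Of 45 genes that NTC cells raised by more than 1 on the log2 scale, 41 were also called higher in DKO cells, and leaving out any 1 library gave between 40 and 42 of 44 to 47 genes. The median of the 45 was 1.52 in NTC and 1.37 in DKO cells. The genes were chosen by their NTC value, which itself favors a higher NTC median, so these medians do not compare the responses. The 4 without a DKO call were AL807777.1, Gm10800, Serpinb9 and Smyd1, named after their values were seen, and the adjusted p-value of the difference was above 0.05 for each of them. Among the 79 genes that rose in DKO cells, the fold change was below that of NTC cells for 54 and above it for 25. The difference between the responses was called for 4 of all tested genes (0.0343%), with 1340 at an unadjusted p-value under 0.05, and of the 91 DKO calls it included B2m and Psmb9. This count was 0 without untreated NTC replicate 1, 2 or 3, untreated DKO replicate 2 or 3 or treated DKO replicate 1, 1 without treated NTC replicate 2 or 3 or treated DKO replicate 2 or 3, and 7 without treated NTC replicate 1.

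**Figure D4:**
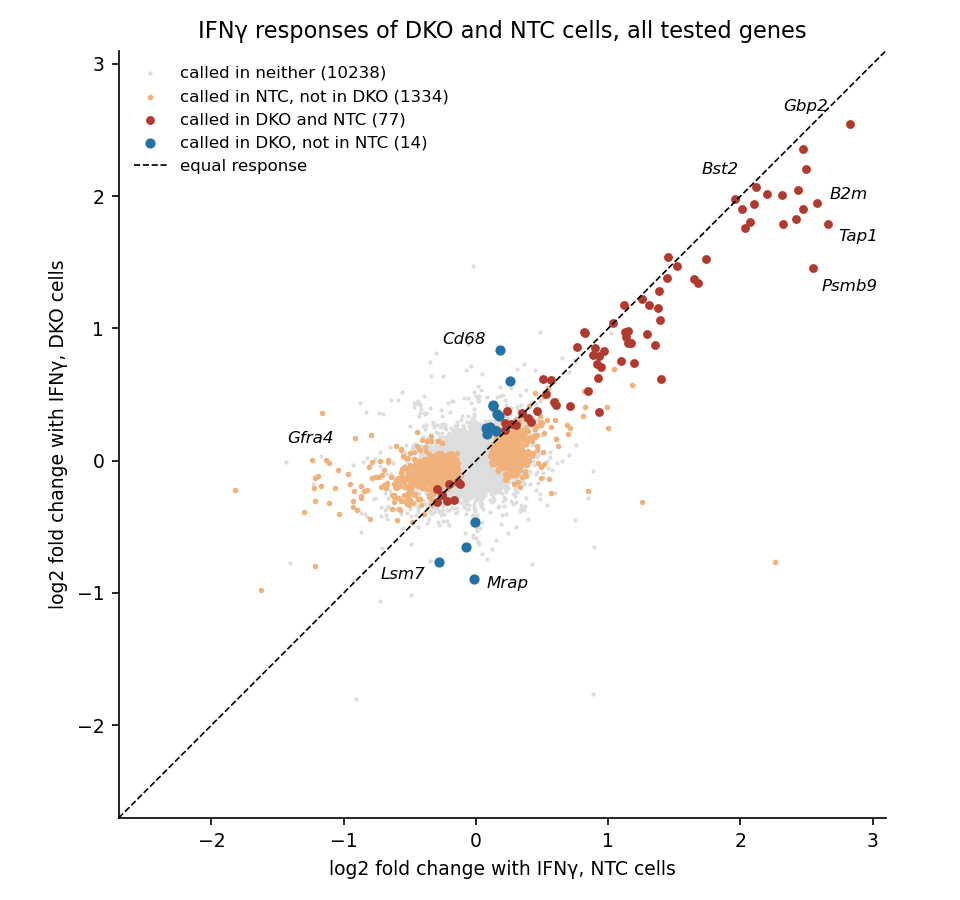
Response to IFNγ as log2 fold change in DKO cells (vertical axis) against NTC cells (horizontal axis) for each of the 11663 tested genes on the log2(TPM + 1) scale, colored by where the gene was called, with a dashed line where the responses would be equal. The 77 genes called in both genotypes run along the line up to Gbp2, and B2m, Psmb9 and Tap1 lie below it.

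Among the 31 genes that rose by more than 1 on the log2 scale in DKO cells, the 95% interval of the difference, not adjusted for the number of genes, lay wholly below 0 for 12, spanned 0 for 19 and lay wholly above 0 for none. For H2-D1, which rose by 1.76 in DKO and 2.04 in NTC cells, it ran from −0.39 to −0.17, for Tap1 from −1.18 to −0.56, for Erap1 from −0.91 to −0.27, for Irgm2 from −0.87 to −0.26, for Ifitm3 from −0.87 to −0.20, for Psmb10 from −0.60 to −0.18 and for Psme2 from −0.48 to −0.10, and after adjustment none of these 7 differences passed the threshold. The estimates near 0 include those of Bst2, Rsad2, Gbp3 and H2-K1, and these 11 genes were picked after their values were seen. Bst2 rose by 2.07 in DKO and 2.12 in NTC cells (difference −0.05, 95% interval −0.21 to 0.11). Rsad2 rose by 1.04 and 1.04 (95% interval of the difference −0.27 to 0.28). Gbp3 rose by 1.48 and 1.52 (95% interval −0.34 to 0.24), and H2-K1 by 1.18 and 1.12 (95% interval −0.14 to 0.25). For these 4 genes the intervals span 0 and leave room for differences from −0.34 to 0.28.

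Calls found in DKO and not in NTC cells numbered 14, of which 10 were higher and 4 lower, and the difference between the responses was past the threshold for none of them after adjustment, with 10 at an unadjusted p-value under 0.05 in limma. The lowest adjusted p-value of the difference was that of Mrap. Mrap, at 0 in treated DKO libraries, was listed in NTC cells at 2.21, 2.65 and 2.73 TPM without IFNγ and at 1.88, 2.53 and 3.15 TPM with it (adjusted p of the difference = 0.257). Cd68 stood at 1.97, 1.51 and 1.60 TPM untreated and 2.62, 1.65 and 1.99 TPM treated in NTC cells, against its rise of 0.83 in DKO cells (difference 0.65, adjusted p = 0.364). Rnf213, a large ubiquitin ligase, stood at 12.2, 11.5 and 10.03 TPM and 13.2, 12.3 and 15.4 TPM in NTC cells (difference 0.35, adjusted p = 0.417). In NTC cells the groups of Mrap and Cd68 thus overlapped, and those of Rnf213 did not. The rest of the higher genes were Fkbp11, St3gal1, Itgb3, Pmel, Car13, Pcolce, Nnmt and Wnk1, with DKO changes between 0.20 and 0.42, and the lower ones were Crip1, Spata24 and Lsm7.

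Of these, 5 have not been described above. Itgb3, an integrin chain, rose in DKO cells from 5.66, 6.10 and 6.31 to 9.14, 7.94 and 8.10 TPM (log2 fold change 0.42 with SE 0.0789, adjusted p = 0.0213), a call lost without untreated DKO replicate 1 or 2 or treated DKO replicate 1 (adjusted p = 0.116, 0.0832 and 0.125 in that order). Nnmt, which methylates nicotinamide, rose from 15.1, 13.7 and 15.1 to 22.99, 18.3 and 18.4 TPM (log2 fold change 0.41 with SE 0.0805, adjusted p = 0.0278), a call lost without untreated DKO replicate 1, 2 or 3 or treated DKO replicate 1 (adjusted p = 0.0687, 0.157, 0.0717 and 0.0831 in that order). Nnmt was at a lower level in DKO than in NTC cells, where it stood at 61.6, 54.98 and 53.6 TPM untreated. Wnk1, a kinase that controls ion transport, rose by 0.26 (adjusted p = 0.0181), lost without untreated DKO replicate 1 or 3 or treated DKO replicate 1 or 3 (adjusted p = 0.106, 0.0955, 0.0707 and 0.0704 in that order). Car13, a carbonic anhydrase, rose by 0.24 (adjusted p = 0.0311), lost without untreated DKO replicate 1, 2 or 3, treated DKO replicate 1 or 2, untreated NTC replicate 3 or treated NTC replicate 1 (adjusted p = 0.122, 0.157, 0.0733, 0.174, 0.0676, 0.0563 and 0.0506 in that order). St3gal1, a sialyltransferase, rose by 0.23 (adjusted p = 0.038), lost without untreated DKO replicate 1, 2 or 3, treated DKO replicate 1 or 2, untreated NTC replicate 3 or treated NTC replicate 1, 2 or 3 (adjusted p = 0.122, 0.187, 0.123, 0.104, 0.0986, 0.0729, 0.0521, 0.0506 and 0.0624 in that order).

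**Figure D5:**
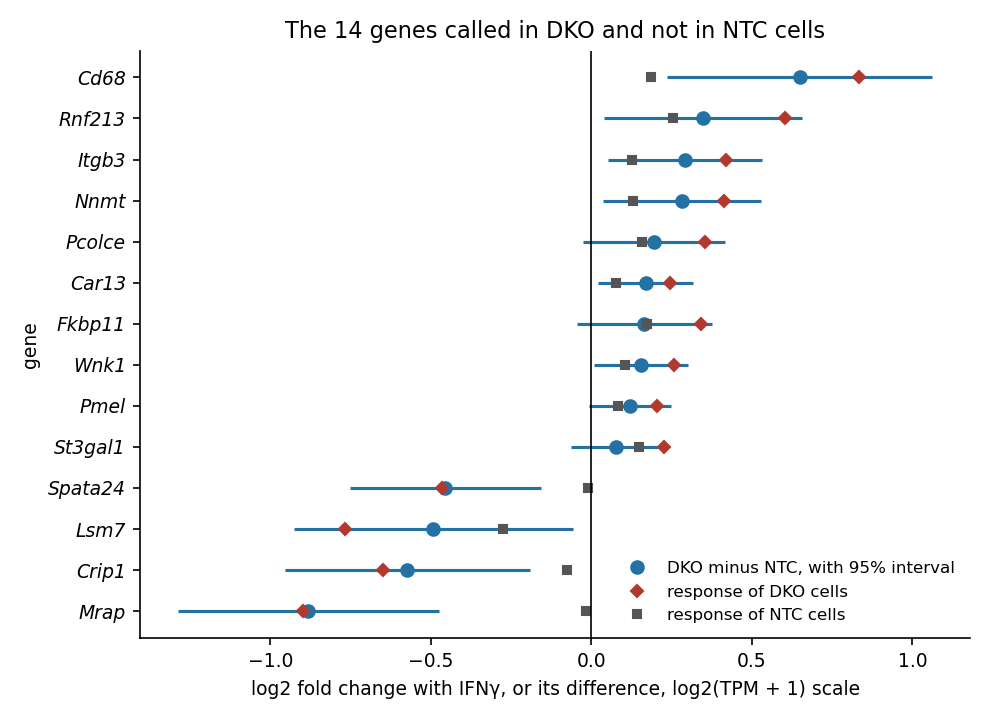
Log2 fold change with IFNγ of the 14 genes called in DKO and not in NTC cells, with red diamonds for DKO cells, grey squares for NTC cells and blue points with 95% intervals for the difference DKO minus NTC, on the log2(TPM + 1) scale. Intervals of 10 genes exclude 0 before any adjustment over genes, and the lowest adjusted p-value of the difference is 0.257, for Mrap.

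Some of the raised genes were neighbors on the genome (GRCm38). Of the 79, 37 lay within 1000000 bases of another gene that rose, in 12 stretches. Whether this exceeds the count for other sets of tested genes was not tested. The longest series was in the MHC on chromosome 17 between 33915899 and 36042747, with Tapbp, H2-K1, Psmb9, Tap1, Psmb8, Tap2, C2, H2-D1, H2-Q4 and H2-T22, which were all 10 genes that rose on this chromosome of 590 tested genes (1.69%). Chromosome 11 held most, 15 of 941 tested genes (1.59%). There Irgm1, Tgtp1, Tgtp2 and Ifi47 lay between 48861968 and 49096974, and Igtp and Irgm2 between 58199556 and 58222782. Members of 1 family or complex were thus neighbors, as were Gbp7, Gbp3 and Gbp2 on chromosome 3, Ifit3 and Ifit1 on chromosome 19, and Parp14, Dtx3l and Parp9 on chromosome 16. On chromosome 14, Psme1 and Psme2 lay with Irf9 between 55578123 and 55610030. Of the 91 called genes, 19 overlap another tested gene, 14 of them on the opposite strand, where unstranded reads do not tell the genes apart.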

How the data were processed

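RNA-seq of 12 B16-F10 libraries was used, 3 for each of untreated NTC, treated NTC, untreated DKO and treated DKO cells. The authors made the deposited TPM with RSEM 1.2.4, modified to call Bowtie, and unaligned reads were passed to TopHat 20.8b against GRCm38. They carry no read depth, so precision comes from the spread between replicates. A gene was tested if 3 libraries or more reached 1 TPM. Values on the scale log2(TPM + 1) entered limma 3.58.1 (R 4.3.3) with a mean per group, a prior variance following expression, and Benjamini-Hochberg adjustment at 0.05 over 11663 genes. The comparisons were treated against untreated DKO cells, the same in NTC cells, and the difference between them. Replicates were not paired, since it is not stated whether their numbers link libraries across treatments.

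The rule for named genes took all list members, the 20 most raised genes with non-overlapping groups, every lowered gene, the genes called in DKO and not NTC cells, the 5 raised genes of highest treated level, and genes called for the difference. Others were named after their values were seen. The lists cover receptor and JAK-STAT genes, feedback inhibitors, IRFs, MHC transactivators, MHC class I and II, peptide loading, immunoproteasome and constitutive proteasome, GBPs, IRGs, antiviral genes, PARP and TRIM genes, sensors, chemokines and checkpoints, cell death, p53 targets, proliferation, Mbnl, melanocyte, leukocyte, fibroblast, endothelial and keratinocyte genes. Members and lists were chosen with earlier results of these data known. Alternatives were a pseudocount of 0.1, no filter, at least 5 TPM, a replicate block, each library left out, only the 6 libraries of a genotype, a common total for all libraries, median-ratio scaling and no trend of the prior variance. Removing a GC content and length trend, with and without the block, was added after seeing the data. Positions came from GENCODE M21, which holds 22251 of the 23022 listed genes, and promoters from RefSeq. Python 3.11.15 with numpy 2.4.6, pandas 2.3.3 and matplotlib 3.10.9 made the tables and figures. Simulated data (seed 7) served to test the fit.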

Additional observations from a re-analysis of the deposited data

Results flagged for a closer look

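For 4 genes the IFNγ response differed between DKO and NTC cells, tested as the difference between the responses with limma (adjusted p = 0.0256 for each). Psmb9 rose in both genotypes and by less in DKO cells, with 12.5, 12.1 and 9.83 TPM in treated NTC libraries (difference −1.09, 95% interval −1.43 to −0.75). Leaving out 1 library gave differences from −1.19 to −1.01, and the adjusted p stayed under the threshold only without treated NTC replicate 3 (0.0489). B2m likewise rose less in DKO cells (difference −0.63, 95% interval −0.81 to −0.45). Without 1 library its difference was −0.68 to −0.56, past the threshold without treated NTC replicate 1, untreated DKO replicate 1 or treated DKO replicate 2 or 3 and not without any of the others.

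RP23-190G10.4 (ENSMUSG00000093701), a gene model, stood at 2.42, 2.11 and 2.18 TPM without and 4.98, 4.41 and 5.14 TPM with IFNγ in NTC cells, and at 2.79, 3.34 and 3.72 TPM and 2.85, 2.30 and 2.82 TPM in DKO cells (difference −1.08). Its range without 1 library was −1.16 to −1.005, with an adjusted p under 0.05 without treated NTC replicate 1 or untreated DKO replicate 1 alone. Gfra4, a receptor of the glial-derived neurotrophic factor family, was listed at 0 in the 3 treated NTC libraries, while the other 9 held 1.11 to 1.598 TPM (difference 1.24). The size rests on a group at 0 and was 3.87 with a pseudocount of 0.1, and it is not stated whether low values were set to 0 in the deposited table. Without 1 library this was 1.16 to 1.31, and the adjusted p was under the threshold only without treated NTC replicate 1 (0.0458).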

How the results depend on the processing

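No gene called in DKO cells changed direction under any alternative, and 61 of the 79 called higher and 4 of the 12 called lower were called in every fit that tested them. The replicate block ended 11 of the higher and 6 of the lower calls. A common total for all libraries ended 3 higher and 4 lower calls, and median-ratio scaling 3 higher and 0 lower ones. Pmel and Pcolce were lost under both scalings. The count of 91 stayed within 1.5 times under all alternatives, from 68 to 109 without 1 library, 75 with the replicate block and 129 after removal of a trend with GC content and length, an alternative chosen after seeing the data. The count higher, 79, ran from 64 to 95 without 1 library and was 69 with the block. The count lower, 12, was 7 with no filter, 6 with the block, 7 with only the 6 libraries of the genotype, 7 with no trend of the prior variance, 20 after this removal, and from 4 to 14 without 1 library. The NTC count, 1411, was 897 with no filter, 737 with no trend of the prior variance, 590 after the removal of the GC content trend, 441 after it with the block, and from 319 to 2020 without 1 library. The count for the difference, 4, was 10 with no filter, 1 at 5 TPM or more, 2 with the block, and from 0 to 7 without 1 library. Of the 4 differences, the block gave adjusted p = 0.0687 for Gfra4, 0.0515 for RP23-190G10.4 and 0.0407 for B2m and Psmb9. Among the other settings that kept all libraries, Psmb9 missed the threshold with a pseudocount of 0.1 (0.0786) and at 5 TPM or more (0.0626), B2m with no trend of the prior variance (0.0666), and Gfra4 after the removal of the GC content trend (0.0678, and 0.169 with the block). Gfra4 and RP23-190G10.4 were not tested at 5 TPM or more. The block was kept as a check. Correlations between same-numbered replicates across treatments lay between −0.15 and 0.10, and with 3 replicates per group they cannot show whether replicates were paired. The 45 genes raised by more than 1 in NTC cells, 41 of them called higher in DKO, became 36 and 34 at 5 TPM or more and 58 and 46 with a pseudocount of 0.1. Fewer samples or genes are part of the settings that leave out libraries or filter, and beyond that the cause was not tested.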

Other observations

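Below the filter, further genes of the interferon response were listed above 0 in treated DKO libraries alone. Among the 11359 listed genes that were not tested, 26 were listed at 0 in all 3 untreated DKO libraries and above 0 in all 3 treated ones, and 4 of these belong to the lists. Iigp1, an IRG, reached 0.406, 0.395 and 0.361 TPM, and Oas2, an oligoadenylate synthetase, 0.542, 0.343 and 0.334 TPM. Trim34a reached 0.415, 0.378 and 0.46 TPM and H2-M3, a class I chain that presents formylated peptides, 0.244, 0.149 and 0.153 TPM. All 4 were under 1 TPM in every DKO library. In untreated NTC libraries Trim34a and H2-M3 were above 0, at 0.517, 0.433 and 0.556 TPM and 0.16, 0.323 and 0.158 TPM. The reverse pattern, above 0 in all untreated and at 0 in all treated DKO libraries, was seen in 10 untested genes, none on a list, such as Oc90, Cd34 and Gja5, named after their values were seen. These values were not tested.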
